A study of Mus musculus with 16 samples.

Results

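The RNA-seq experiment held 2 separate control groups of oxLDL-loaded peritoneal macrophages (PM), one for each mouse line in which the lipid droplet protein LDAH was changed. They are set side by side here because nothing in their labels differs but the sample names and the genotype: both gave thioglycolate-elicited PM of mice labelled C57BL/6J. The first group, WT, came from wild-type littermates of LDAH-KO mice and carries the genotype label LDAH WT. The second group, Control, came from littermates of LDAH-Tg mice without the transgene and carries the genotype label LDAH ApoE control. Each group had 4 samples, 8 of the 16 in the series, and the other 8 were LDAH-KO and LDAH-Tg PM. PM were collected 5 days after injection of aged 3% thioglycolate and kept with oxidized LDL at 50 μg/ml for 48 h, so all values describe loaded cells and none an unloaded state. Of 48432 genes with a value, 11404 were compared: those with a mean of both groups of at least 1 TPM (transcripts per 1000000) and a value above 0 in each. By the study's methods the KO line was made directly in C57BL/6, whereas the transgene was first injected into a C57BL/6 and DBA/2 cross and then bred to C57BL/6 over generations. Both lines were also bred to *Apoe*-deficient mice for atherosclerosis studies. Neither the labels nor the methods give the sex and age of the mice behind these samples, whether samples of a group came from separate mice, or a date of preparation or sequencing. Although the Control label names ApoE, the *Apoe* genotype of the mice behind either group is not stated. Mouse line, genetic background, any difference in *Apoe* genotype and any batch therefore cannot be told apart.

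Macrophages take up modified LDL through scavenger receptors, break down its cholesteryl esters in lysosomes and store the cholesterol again as esters in lipid droplets. A cell filled with such droplets is called a foam cell, and it is the main cell of early atherosclerotic plaque. Injected thioglycolate draws monocytes into the peritoneum, which become macrophages within days and outnumber the resident ones. PM of mice from different colonies usually express the same core program, and strain variants, culture and library preparation are known to move single genes around it.

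Each value is an average over the samples of a group made by the authors, in TPM, a level per transcript length, and no value per sample was used here. No SD, test or replicate check can be given, the depth is unknown, and each difference below is one of size between 2 means. It is written as a log2 ratio of Control over WT after adding 0.5 to each mean, and a gene is counted when the ratio reaches a factor of 1.5, or 0.585 on the log2 scale. Some abundant transcripts are listed at exactly 0 in 1 group, and no ratio is given for them. There were 113 genes with a mean of at least 1 TPM and 1 group at 0. Of these, 53 were at 0 in WT and held 20025 TPM in Control, and 60 were at 0 in Control and held 18603 TPM in WT. In WT the cathepsin S gene *Ctss*, the peroxiredoxin gene *Prdx1* and the scavenger receptor gene *Cd36* were listed at 0, against 8294, 7583 and 3276 TPM in Control. In Control the lipoprotein lipase gene *Lpl* and the mitochondrial genes *mt-Nd1* and *mt-Cytb* were listed at 0, against 3544, 6694 and 3764 TPM in WT. Macrophages express all of these strongly, and *Lyz2*, *Ctsl* and *Gpnmb* were at 0 in both groups, so a 0 here is not read as absence.

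Both groups expressed a macrophage profile. Of 16 markers of macrophages in general, 15 were compared, with summed means of 13025 TPM in WT and 16896 TPM in Control. *Cd68*, a lysosomal glycoprotein of macrophages, had 3321 TPM in WT and 4959 TPM in Control, a ratio just under the factor of 1.5 (log2 ratio 0.58). *Csf1r*, which encodes the M-CSF receptor, had 108 TPM in WT and 100.5 TPM in Control. The complement gene *C1qb* and the adaptor gene *Tyrobp* were likewise present in both, at 386 and 544 TPM and at 6857 and 9333 TPM. By the factor, 3 of the 15 (20%) were lower in Control and 0 higher, against 26.5% and 12.1% of all genes compared. Of these 3, *Adgre1*, the gene of F4/80, was the furthest from WT, with 146 TPM in WT and 33.1 TPM in Control (log2 ratio -2.13). *Itgam*, the gene of CD11b, followed with 273.5 and 144 TPM (-0.92), and *Laptm5*, of a lysosomal membrane protein, with 920 and 603.5 TPM (-0.61). The table holds a further entry named *Itgam*, an overlapping annotation at the same locus, which went the other way with 4.00 TPM in WT and 20.7 TPM in Control, so reads of this locus may be split between entries.

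Markers of other cells had low sums in both groups, as far as values above 0 show. The 10 B cell markers summed to 23.1 TPM in WT and 14.8 TPM in Control, the 15 T and NK cell markers to 3.62 and 2.504 TPM, and the 8 eosinophil markers to 4.61 and 3.25 TPM. The 12 neutrophil markers summed to 91.0 and 135 TPM, mostly through the calprotectin gene *S100a8* (63.8 TPM in WT and 107 TPM in Control). Fibroblast markers reached 39.8 and 31.2 TPM, and the mast cell and red cell lists reached at most 1.36 TPM. Dendritic cell markers summed to 72.7 and 63.7 TPM, and mesothelial markers to 10.6 and 10.5 TPM. Endothelial markers summed to 15.1 and 32.5 TPM, mostly through *Vwf* (12.8 TPM in WT and 29.9 TPM in Control, log2 ratio 1.19). Such sums do not show absence, since 6 of the 7 red cell genes and 5 of the 15 T and NK cell markers were listed at 0 in both groups. The neutrophil genes *Ly6g* and *Retnlg* were at 0 in both as well, and *S100a9*, the partner of *S100a8*, at 0 in WT and 0.0474 TPM in Control. Resident large PM markers summed to 609 TPM in WT and 587 TPM in Control, mostly through *Saa3* (327 and 389 TPM). Of these 20 markers, 6 had a mean below 1 TPM, among them *Timd4* (0.106 and 0.0462 TPM) and *Prg4* (0.506 and 0.353 TPM). Of the 14 resident markers compared, 3 (21.4%) were lower in Control by the factor, against 26.5% of all genes compared, and 0 were higher. They were *Vsig4* (8.65 and 2.98 TPM), *Cxcl13* (13.6 and 6.68 TPM) and *Lyz1* (64.8 and 33.4 TPM). Markers of monocyte-derived and small PM summed to 592 TPM in WT and 443 TPM in Control. Of the 8 compared, 1 (12.5%) was higher and 2 (25%) were lower by the factor, near the 12.1% and 26.5% of all genes. Their median log2 ratio was -0.49, against -0.17 over all genes, and -0.36 when centred as described below. For any marker in such cultures, fewer cells of a type and less RNA per cell cannot be told apart.

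The most abundant transcripts were largely shared. Among the 100 genes of highest level in each group, 75 were common to both. Of the 20 protein-coding genes with the highest mean among the genes compared, which leaves out *Ctss*, 16 lay within the factor. The first was *Tmsb10*, of an actin-binding thymosin, with 8169 TPM in WT and 11048.5 TPM in Control. The lipid-binding protein gene *Fabp5* had 8743 and 9877 TPM, and *Apoe* had 9565 and 8775 TPM (log2 ratio -0.12). *Spp1*, the gene of osteopontin and a marker of foam cells, had 6539 and 6825 TPM (0.06), and the tetraspanin gene *Cd63* had 4388 and 4940 TPM. Of the 4 genes past the factor, 3 were higher in Control: the intermediate filament gene *Vim* (2530 TPM in WT and 5543 TPM in Control, log2 ratio 1.13), the cell cycle inhibitor gene *Cdkn1c* (3207 and 4850 TPM, 0.60) and the complex I gene *mt-Nd2* (2869 and 13146 TPM, 2.20), whose mean is listed at 0 in LDAH-Tg PM. The elongation factor gene *Eef1a1* was lower, with 6268 TPM in WT and 2822 TPM in Control (-1.15). The 50 genes of highest mean over both groups held 18.3% of all TPM in WT and 23.5% in Control.

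At the other end of the same scale stood genes whose means were nearly identical. In the protein-coding genes with a mean of 100 TPM or more, the 10 nearest to a ratio of 1 included the myosin light chain gene *Myl6* (3118 TPM in WT and 3116 TPM in Control), the ribosomal protein gene *Rpl6* (947 and 949 TPM), the nucleolin gene *Ncl* (223 and 223 TPM) and the Fc receptor gene *Fcgr4* (251 and 251 TPM). Equal means do not show that single samples were equal.

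Of the 11404 genes compared, 4404 (38.6%) differed between the control groups by a factor of 1.5 or more. Of these, 1377 (12.1%) were higher and 3027 (26.5%) lower in Control, and among the 10508 protein-coding genes 1066 (10.1%) were higher and 2837 (27%) lower. The median log2 ratio was -0.17, with a middle range of the genes from -0.61 to 0.26. When both groups were scaled to a median of 0, 2108 genes (18.5%) were higher and 2087 (18.3%) lower, so the excess of lower genes went with that shift and the overall number barely changed (36.8%). The share past the factor was 41.8% of 989 genes with a mean from 1 to 2 TPM, 37.0% of 1442 genes from 100 to 1000 TPM and 25.4% of 173 genes of at least 1000 TPM. In that last class, where single low values weigh least, 29 genes were higher and 15 lower. By contrast, over 11383 of these genes with values in all groups, LDAH-KO differed from WT by the factor in 2.15% and LDAH-Tg from Control in 1.56%.

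**Figure D1:**
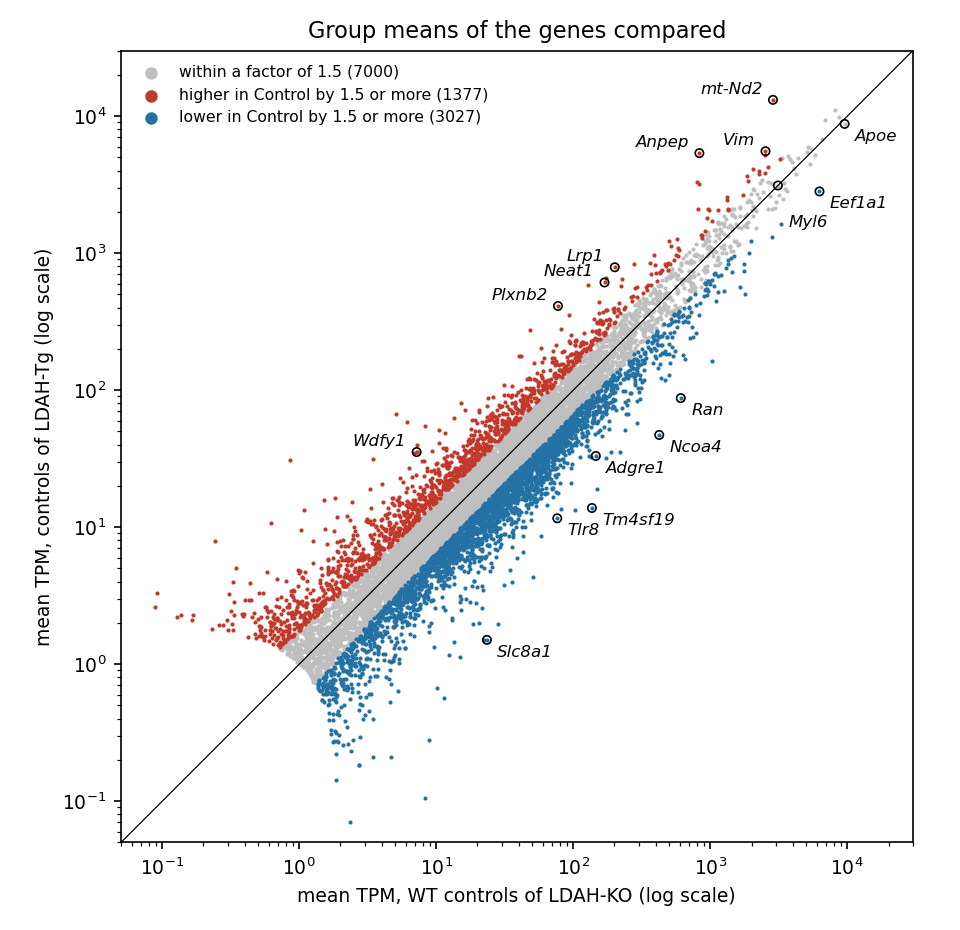
Mean TPM of WT (x axis) and Control (y axis), both on log scales, for the 11404 genes compared, each point a gene and the line marking equal means. Red points are the 1377 genes higher and blue points the 3027 genes lower in Control by a factor of 1.5 or more, and circles mark named genes such as *Anpep* (833 and 5369 TPM) above and *Ncoa4* (424 and 47.1 TPM) below the line.

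Among abundant genes, the highest ratio belonged to *Anpep* (chromosome 7 of GRCm38, 79821803 to 79861059), which encodes aminopeptidase N (CD13), a surface peptidase of myeloid cells. Its mean was 833 TPM in WT and 5369 TPM in Control, 6.44 times as much (log2 ratio 2.69). *Plxnb2*, the gene of a semaphorin receptor, had 77.3 and 411 TPM (2.40), and *Mroh1* had 48.6 and 273 TPM (2.48). *Lrp1*, of a large receptor for lipoproteins and apoptotic cells, had 201 and 789 TPM (1.97), the ribosome-binding ER protein gene *Rrbp1* 172 and 654 TPM (1.92), and *Adam15*, of a membrane-bound metalloproteinase, 93.8 and 355 TPM (1.91). The kinase gene *Pi4ka*, which makes phosphatidylinositol 4-phosphate, had 41.7 and 177 TPM (2.07). The 2 other nuclear genes of this set were *Rsrp1* (129 and 581 TPM, 2.17) and *Prrc2a* (40.1 and 178 TPM, 2.13).

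Lower-expressed genes reached still higher ratios. *Sap25*, of a corepressor complex, had 1.08 TPM in WT and 13.4 TPM in Control (log2 ratio 3.14). *Pagr1a*, of a histone methyltransferase complex, had 1.52 and 15.8 TPM (3.01), and the mitochondrial RNA polymerase gene *Polrmt* had 6.93 and 34.6 TPM (2.24). The nuclear transport genes *Ipo4* (15.1 and 79.9 TPM, 2.36) and *Nup214* (10.5 and 51.2 TPM, 2.24) were both among the 12 highest protein-coding genes of at least 5 TPM. Of these 12, 11 lie at a locus that the deposited table assigns to more than 1 gene, and the highest, *Gm42715* (0.623 and 10.8 TPM, 3.33), is a predicted gene within such a locus. Among noncoding genes, named here after their values were seen, *Mir142hg*, the host transcript of the blood cell microRNA miR-142, had 5.07 TPM in WT and 67.0 TPM in Control (3.60).

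For genes with protein products and a mean of 5 TPM or more, the ratio farthest from 1 was on the lower side. *Slc8a1* (chromosome 17, 81373105 to 81738377), which encodes a plasma membrane sodium-calcium exchanger, had 23.4 TPM in WT and 1.504 TPM in Control, 11.9 times less (log2 ratio -3.58). *Lmbrd2* had 28.1 and 1.96 TPM (-3.54), and the translation initiation factor gene *Eif2s3x* 51.1 and 4.31 TPM (-3.42). *Tm4sf19*, a tetraspan-like gene known from osteoclasts, was prominent in WT with 137 TPM and had 13.8 TPM in Control (-3.26). *Cd300ld3*, of an immunoglobulin-like receptor family, had 22.2 and 1.502 TPM (-3.50). *Mia3*, of a protein that loads collagen into transport carriers, had 18.7 and 1.95 TPM (-2.97).

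Several of these genes were abundant in WT. *Ncoa4* (chromosome 14, 32159865 to 32179855), of the receptor that takes ferritin to lysosomes, had 424 TPM in WT and 47.1 TPM in Control, 8.92 times less (-3.16). *Ran*, of the GTPase that drives nuclear transport, had 609 and 87.5 TPM (-2.79). The actin capping gene *Capza1* (219 and 35.6 TPM, -2.60), the RNA-binding protein gene *Celf2* (172 and 32.1 TPM, -2.40), the signalling adaptor gene *Pik3ap1* (189 and 35.5 TPM, -2.40) and *Rab8a*, a small GTPase of membrane traffic (294 and 57.1 TPM, -2.35), came next. The 14-3-3 gene *Ywhae* had 653 and 167 TPM (-1.96), and *Vsir*, of the checkpoint protein VISTA, 465 and 119 TPM (-1.96). *Mbnl1*, which also encodes an RNA-binding protein, had 498 and 129 TPM (-1.95). The last of the 10 was *Vapb*, of an ER contact site protein (251 and 67.3 TPM, -1.89). Of these 10, 5 are alone at their locus, against 2 of the 10 highest, *Ncoa4*, *Ran* and *Rab8a* among them.

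**Figure D2:**
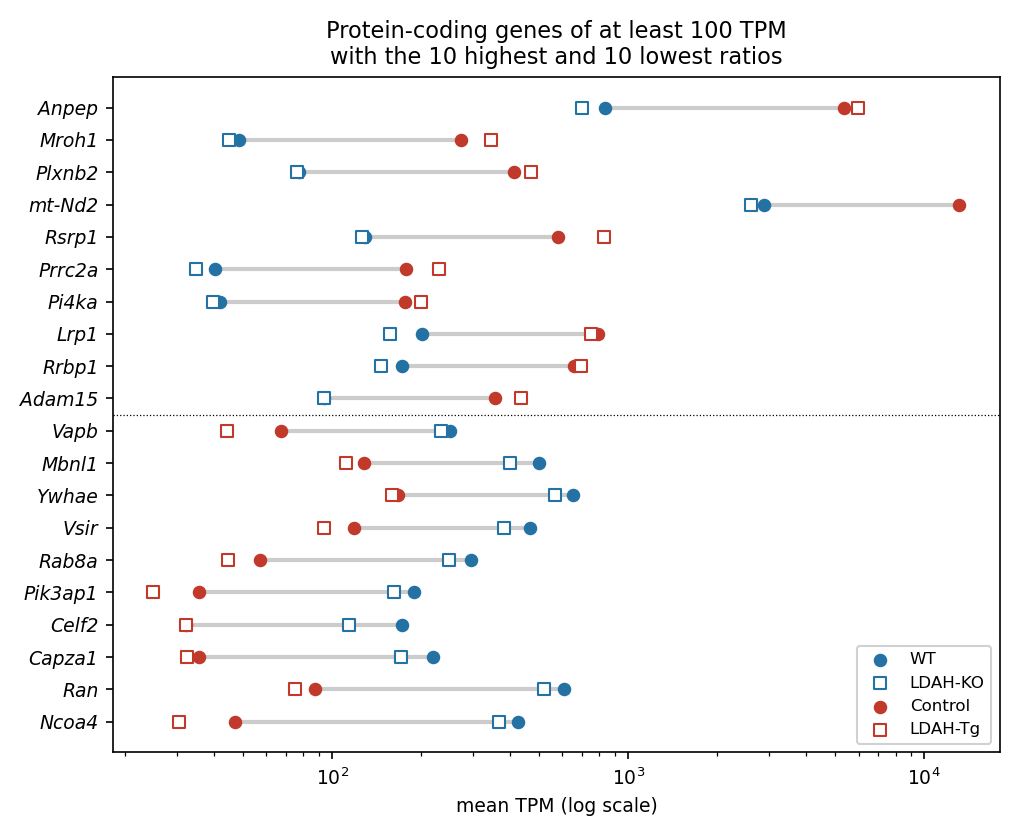
Mean TPM (x axis, log scale) of protein-coding genes of 100 TPM or more, the 10 of highest (top) and the 10 of lowest ratio (bottom) of Control to WT, with filled circles for WT (blue) and Control (red) joined by a gray line, and open squares for LDAH-KO (blue) and LDAH-Tg (red). For every gene drawn the square of each line lies near the circle of that line, as for *Anpep* (700 TPM in LDAH-KO and 5985 TPM in LDAH-Tg PM); *mt-Nd2* has no square for LDAH-Tg, where it is listed at 0.

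The same difference was then read in the other PM of the 2 lines, which share no sample with the control groups. LDAH-KO is a deletion in the WT line and LDAH-Tg adds a *Csf1r*-driven transgene to the Control line. *Ldah* had 27.9 TPM in LDAH-KO PM, 44.5 TPM in WT and 28.5 TPM in Control, so its level in LDAH-KO PM was close to that of the unmodified Control. A value per gene does not show whether the deleted exons were read. LDAH-Tg differed from LDAH-KO PM by a factor of 1.5 in 42.9% of 11383 genes, 17.5% higher and 25.3% lower. Of 1367 genes higher in Control than in WT by the factor, 1220 were also higher in LDAH-Tg than in LDAH-KO PM by it, which is 89.2% of the first list and 61.1% of the 1996 genes of the second. Of 3020 lower genes, 2409 were lower in both, 79.8% of the first list and 83.5% of the 2884 genes of the second. By any size, 1356 and 2964 had the same direction. Spearman's rho between the log2 ratios was 0.91 over the 11383 genes, a description in which genes do not count as replicates. Neither the labels nor the methods say whether the groups of a line were prepared together, so this overlap does not separate mouse line from batch.

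All 12 highest and all 12 lowest genes of at least 5 TPM kept their side by the factor between LDAH-KO and LDAH-Tg PM. *Slc8a1* went from 18.9 TPM in the first to 1.04 TPM in the second (log2 ratio -3.65), and *Ncoa4* had 367 and 30.4 TPM (-3.57). For *Lrp1* the means were 157 and 750.5 TPM (2.26). Only 16 genes passed the factor in opposite directions, 5 of them protein-coding. The first of these was *Ldah*, lower in Control than in WT (44.5 and 28.5 TPM, -0.63) and higher in LDAH-Tg than in LDAH-KO PM (124 and 27.9 TPM, 2.14), the gene that the genotypes change. The others, named after their values were seen, were the secreted protein gene *Serpinf1* (6.74 and 3.81 TPM in WT and Control, 2.24 and 6.28 TPM in LDAH-KO and LDAH-Tg PM), the fibroblast receptor gene *Pdgfra*, *Mmp23* and the smooth muscle gene *Myl9*, all at low levels. Collagen chains also departed, with a median of 0.08 over 9 genes between the control groups and 1.05 between LDAH-Tg and LDAH-KO PM. The list of fibroblast markers went from a median of -0.30 over 5 genes to 1.06. It shares *Col1a1* and *Col3a1* with the collagen chains, and its medians are the values of *Col3a1*. Its members *Pdgfra* (-0.65 and 0.71) and *Dcn* (-0.61 and -0.10) are not collagen chains. Matrix glycoproteins went from 0.03 over 20 genes to 0.51. The part of fibroblasts in this difference was not tested.

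**Figure D3:**
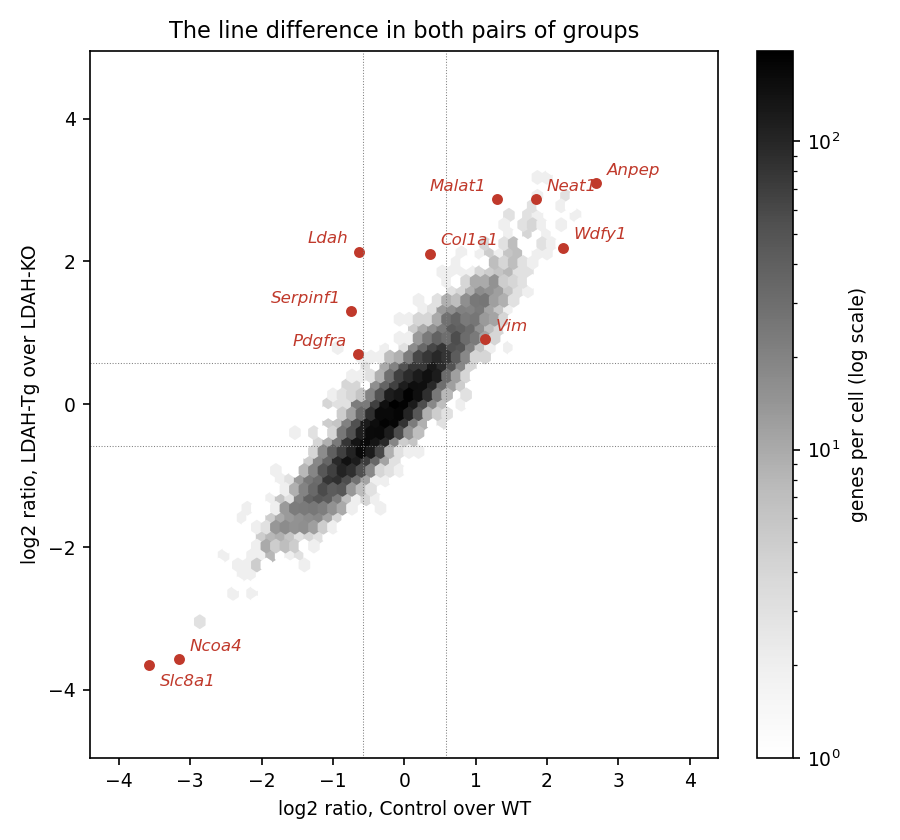
Log2 ratio of Control over WT (x axis) against that of LDAH-Tg over LDAH-KO (y axis) for 11383 genes, shaded by the number of genes in each cell on a log scale, with dotted lines at a factor of 1.5. Most genes lie along the diagonal, whereas *Ldah* (-0.63 and 2.14) lies far above it.

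Genes that differed shared properties of their transcripts. Of the longest coding transcript of each protein-coding gene, the 1066 higher genes had a median GC content of 55.0% and a 3′ UTR of 424 bases, and the 2837 lower genes a GC content of 46.2% and a 3′ UTR of 1945 bases, against 49.9% and 1114 bases for all. With the genes in 10 equal classes by GC content, the median log2 ratio went from -0.52 in the class of lowest GC to 0.29 in that of highest GC. In the lowest class 4.28% were higher and 46.2% lower by the factor, and in the highest 27.1% and 4.66%. By 3′ UTR length the medians went from 0.26 in the class of up to 199 bases to -0.62 in that of at least 3639 bases. By coding length the medians lay between -0.09 and -0.31 in all but the shortest class. Spearman's rho over 10508 genes was 0.42 with GC content, -0.42 with 3′ UTR length and -0.13 with coding length, and with LDAH-Tg over LDAH-KO it was 0.42, -0.32 and 0.04. These points share the same libraries and the properties go together, since long 3′ UTRs are poor in GC.

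Each property went with the ratio within classes of the other. Among the genes of high GC content the median was 0.30 with a short and -0.19 with a long 3′ UTR, and among those of low GC content -0.19 and -0.63. The corner classes differed most: 27.9% of 1825 genes with high GC and a short 3′ UTR were higher by the factor, and 53.4% of 1798 genes with low GC and a long 3′ UTR were lower. Genes with 5 or more annotated transcripts that retain an intron had a median of 0.00, and those with none -0.20. By chromosome the protein-coding medians ranged from -0.40 to 0.02, and after centring as described next from -0.09 to 0.07.

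The GC difference is illustrated here in coding letters. Genes and stretches were picked by their GC content, so the contrast between them follows from the choice and adds no evidence. The GC content of whole coding regions was not computed. Shown are 90 coding bases each of 4 transcripts (GENCODE M21, GRCm38), with G and C in capitals. They are from the 10 highest and the 10 lowest genes of at least 100 TPM. Chosen were the 2 of highest GC among the nuclear genes of the first 10, and the 2 of lowest GC among the second 10. The stretch is the one whose GC content is nearest to that of the whole transcript, codons 31 to 60 of *Prrc2a* (chromosome 17, minus strand), 21 to 50 of *Adam15* (chromosome 3, minus strand), 53 to 82 of *Mbnl1* (chromosome 3, plus strand) and 95 to 124 of *Celf2* (chromosome 2, minus strand).
Prrc2a: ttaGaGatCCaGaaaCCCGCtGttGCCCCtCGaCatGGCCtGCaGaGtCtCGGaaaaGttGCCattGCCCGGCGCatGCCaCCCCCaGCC
Adam15: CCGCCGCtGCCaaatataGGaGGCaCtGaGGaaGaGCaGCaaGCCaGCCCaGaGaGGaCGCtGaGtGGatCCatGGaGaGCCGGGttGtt
Mbnl1: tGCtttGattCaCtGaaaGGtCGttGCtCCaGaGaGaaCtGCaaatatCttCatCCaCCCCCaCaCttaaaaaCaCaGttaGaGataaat
Celf2: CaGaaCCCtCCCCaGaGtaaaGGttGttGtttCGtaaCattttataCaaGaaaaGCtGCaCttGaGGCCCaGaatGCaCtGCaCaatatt
The stretches hold 61.1% and 60% G and C in the higher pair, and 40% and 42.2% in the lower pair. The 3′ UTRs of the higher pair have 185 and 271 bases, and those of the lower pair 3389 and 7381 bases. Other genes at the ends do not follow this contrast: *Wdfy1* was higher in Control with a GC content of 45.6%, and *Tm4sf19* lower with 53.6%.

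**Figure D4:**
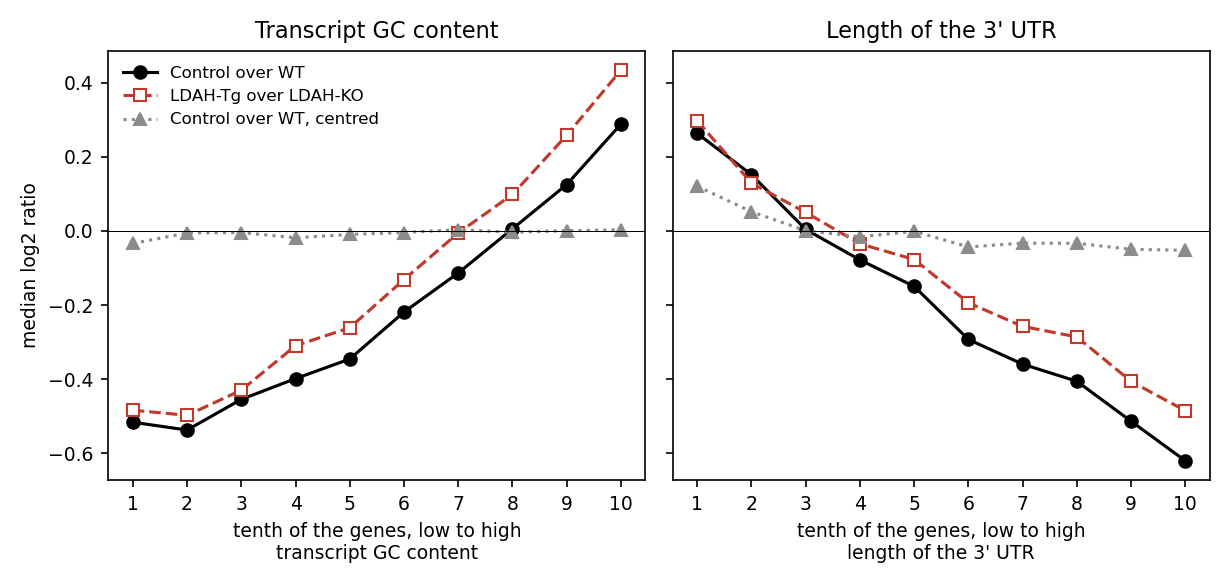
Median log2 ratio (y axis) of protein-coding genes in 10 equal classes from low to high transcript GC content (left) and 3′ UTR length (right), for Control over WT (black), LDAH-Tg over LDAH-KO (red squares) and Control over WT centred within classes of GC and length (gray triangles). Control over WT runs from -0.52 to 0.29 with GC content and from 0.26 to -0.62 with 3′ UTR length, and the centred medians stay between -0.05 and 0.12.

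To see which genes stood apart from others of like composition, each ratio was also centred on the median of its class among 50 classes of transcript GC and length, a step chosen after the data were seen. Then 28.5% of 11377 genes passed the factor, 1699 (14.9%) higher and 1542 (13.6%) lower. Of 1368 higher genes 1030 also passed after centring, and of 3022 lower genes 1364 did. Of those, 954 and 1234 also passed the factor in LDAH-Tg against LDAH-KO PM. *Anpep* had a centred log2 ratio of 2.95, *Slc8a1* of -2.90, *Ncoa4* of -2.60 and *Vim* of 1.13. The 12 highest and 12 lowest genes all passed the factor after centring. They had been chosen by log2 ratios of at least 2.22 in size, so this was close to given by the choice. Gene lists of function below are given by their median and their centred median, and are read against the median of -0.17 and the shares of 12.1% and 26.5% over all genes.

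Long noncoding RNAs of the nucleus and snoRNA host genes were the list with the most uniform difference among those of more than 3 genes. All 14 members compared were higher in Control and 13 by the factor, with a median log2 ratio of 1.09 (centred 1.25, and 1.33 between LDAH-Tg and LDAH-KO PM). *Neat1*, the scaffold of paraspeckles, had 169 TPM in WT and 611 TPM in Control (1.85). *Malat1*, of nuclear speckles, had 70.0 and 173 TPM (1.30), and the snoRNA host *Snhg20* 9.25 and 35.9 TPM (1.90). *Snhg6*, at 61.8 and 86.1 TPM, was the one member under the factor. Noncoding classes in the annotation leaned the same way: 57 of 131 lincRNAs and 55 of 126 antisense RNAs were higher by the factor, with medians of 0.45 each. Processed pseudogenes did not, with 53 higher and 123 lower of 321.

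Transcripts of the mitochondrial genome were hard to read. Of 37 members only 3 were compared, *mt-Nd2* and the rRNA genes *mt-Rnr1* (802 TPM in WT and 3280 TPM in Control) and *mt-Rnr2* (821 and 3176 TPM), all higher in Control with a median of 2.03 (centred 2.12), while 10 others were at 0 in 1 group. The summed means of all members were 17709 TPM in WT and 19603 TPM in Control, so the gene entries within this genome differed far more than their sum.

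Nuclear genes of respiration and the ribosome leaned higher. Of 36 complex I genes, 9 were higher and 1 lower by the factor, with a median of 0.37 (centred 0.24), among them *Ndufb4* (27.9 TPM in WT and 71.3 TPM in Control) and *Ndufa5* (104 and 233.5 TPM). Complexes III to V had 9 higher and 4 lower of 40, with a median of 0.27 that turned to -0.03 after centring. Of 87 cytosolic ribosomal protein genes, 17 (19.5%) were higher and 3 (3.45%) lower, against 12.1% and 26.5% of all genes. Their median was 0.32 (centred 0.12). *Rps20* had 388 and 969 TPM (1.32), whereas *Rps3* had 1450 and 729 TPM (-0.99) and *Rpl5* 896.5 and 484 TPM (-0.89). These genes have short 3′ UTRs, with a median of 99 bases. Mitochondrial ribosomal protein genes had a median of 0.15 (centred 0.14), with 12 of 77 higher and 4 lower.

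Translation factors went the other way. Of 35 initiation and elongation factors, 15 were lower and 3 higher by the factor (6 and 3 after centring), with a median of -0.28 before and after centring and -0.51 between LDAH-Tg and LDAH-KO PM. Beside *Eif2s3x* and *Eef1a1*, the cap-binding protein gene *Eif4e* had 172.5 TPM in WT and 67.4 TPM in Control (-1.35). Of 30 aminoacyl-tRNA synthetases 10 were lower and 2 higher, with *Mars* (23.6 and 63.9 TPM, 1.42) against *Dars* (90.7 and 39.7 TPM, -1.18). Their median was -0.26 (centred -0.04).

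Splicing factors and chromatin regulators had higher medians after centring than before. Of 35 SR and hnRNP genes, 9 were higher and 7 lower by the factor with a median of 0.22, and 13 higher and 1 lower with a median of 0.41 after centring. The SR protein kinase genes *Clk1* (58.9 TPM in WT and 125 TPM in Control, 1.07) and *Clk4* (49.2 and 99.5 TPM, 1.01) were higher, and *Hnrnpa3* (830 and 351 TPM, -1.24) was lower. Of 41 chromatin regulators, 5 were higher and 10 lower with a median of -0.04, against 11 higher and 1 lower with a median of 0.33 after centring. *Trrap*, of a histone acetyltransferase complex, had 11.6 and 48.9 TPM (2.03), the methyltransferase genes *Kmt2d* 6.04 and 18.1 TPM (1.51) and *Setd2* 20.7 and 50.0 TPM (1.25). *Kdm5a*, of a histone demethylase, had 23.3 and 8.64 TPM (-1.38). The 291 zinc finger genes named *Zfp* had a median of -0.10 (centred 0.27). The sign of the median thus depended on the step for the chromatin and *Zfp* lists, but not for the splicing list.

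Receptors for modified lipoproteins differed in both directions. Of 12 scavenger receptor genes compared, 4 were higher and 5 lower in Control by the factor, with a median of 0.05 (centred 0.03). *Stab1*, which binds oxidized and acetylated LDL, was higher beside *Lrp1*, with 8.08 TPM in WT and 30.4 TPM in Control (1.85). The class A receptor genes *Msr1* (470 and 194 TPM, -1.28) and *Colec12* (39.1 and 14.9 TPM, -1.36) were lower. *Cd36* gives no ratio, as above.

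The part of the foam cell and Trem2 program that could be compared was close in both groups. Of its 21 members 14 were compared, since 6 were listed at 0 in both groups (*Gpnmb*, *Lgals3*, *Ctsb*, *Ctsd*, *Ctsl* and *Mmp12*) and *Lpl* at 0 in Control. Of these 14, 11 were within the factor, with a median of 0.05 (centred 0.17), among them *Trem2* (2145 TPM in WT and 2046 TPM in Control) and *Cd9* (1861 and 1924 TPM), named after their values were seen. *Apoc2* (8.17 and 23.6 TPM, 1.47) and *Acp5*, of tartrate-resistant acid phosphatase (236 and 389 TPM, 0.72), were higher, and the lysosomal acid lipase gene *Lipa* was lower (1910 and 1007 TPM, -0.92). Of 15 LXR targets outside fatty acid synthesis, 2 were higher, 1 was lower and the median was -0.01 (centred 0.10). The phospholipid transfer protein gene *Pltp* had 177 and 384 TPM (1.11), *Smpdl3a* had 449 and 188 TPM (-1.25), and the cholesterol exporter gene *Abca1*, also named after its value was seen, had 82.2 and 76.5 TPM (-0.10).

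Genes that esterify, store and release cholesterol and triglyceride were mixed. Of 17 compared, 2 were higher and 5 lower by the factor, with a median of -0.44 (centred -0.09). *Soat1*, of the enzyme that makes cholesteryl esters, had 708 TPM in WT and 239.5 TPM in Control (-1.56), and *Nceh1*, of a cholesteryl ester hydrolase, 276 and 124 TPM (-1.15). *Dgat1*, of triglyceride synthesis, was higher with 19.7 and 39.8 TPM (0.99). The lipid droplet coat gene *Plin2* had 3397 and 2474 TPM (-0.46), within the factor and named after its value was seen.

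Fatty acid synthesis and desaturation had the lowest median of all lists of at least 3 genes, -0.69, the same as between LDAH-Tg and LDAH-KO PM. Of 15 genes, 9 were lower by the factor and 1 higher. *Acaca*, of acetyl-CoA carboxylase, had 10.1 TPM in WT and 4.44 TPM in Control (-1.10), *Acsl4* had 72.0 and 33.7 TPM (-1.08), and *Me1* 2.92 and 0.930 TPM (-1.26). *Fasn*, the fatty acid synthase that acts next to *Acaca*, was the exception with 2.48 and 8.18 TPM (1.54). After centring the median was -0.15, with 2 genes lower and 1 higher. Cholesterol synthesis had 2 of 22 genes higher and 2 lower, with a median of -0.21 that turned to 0.25 after centring, and included *Idi1* (4.31 and 0.805 TPM, -1.88). Of 28 genes of fatty acid oxidation 10 were lower and 0 higher (median -0.25, centred -0.17), with both subunits of the trifunctional protein among them: *Hadha* had 173 and 81.8 TPM (-1.07) and *Hadhb* 173.5 and 68.5 TPM (-1.33).

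**Figure D5:**
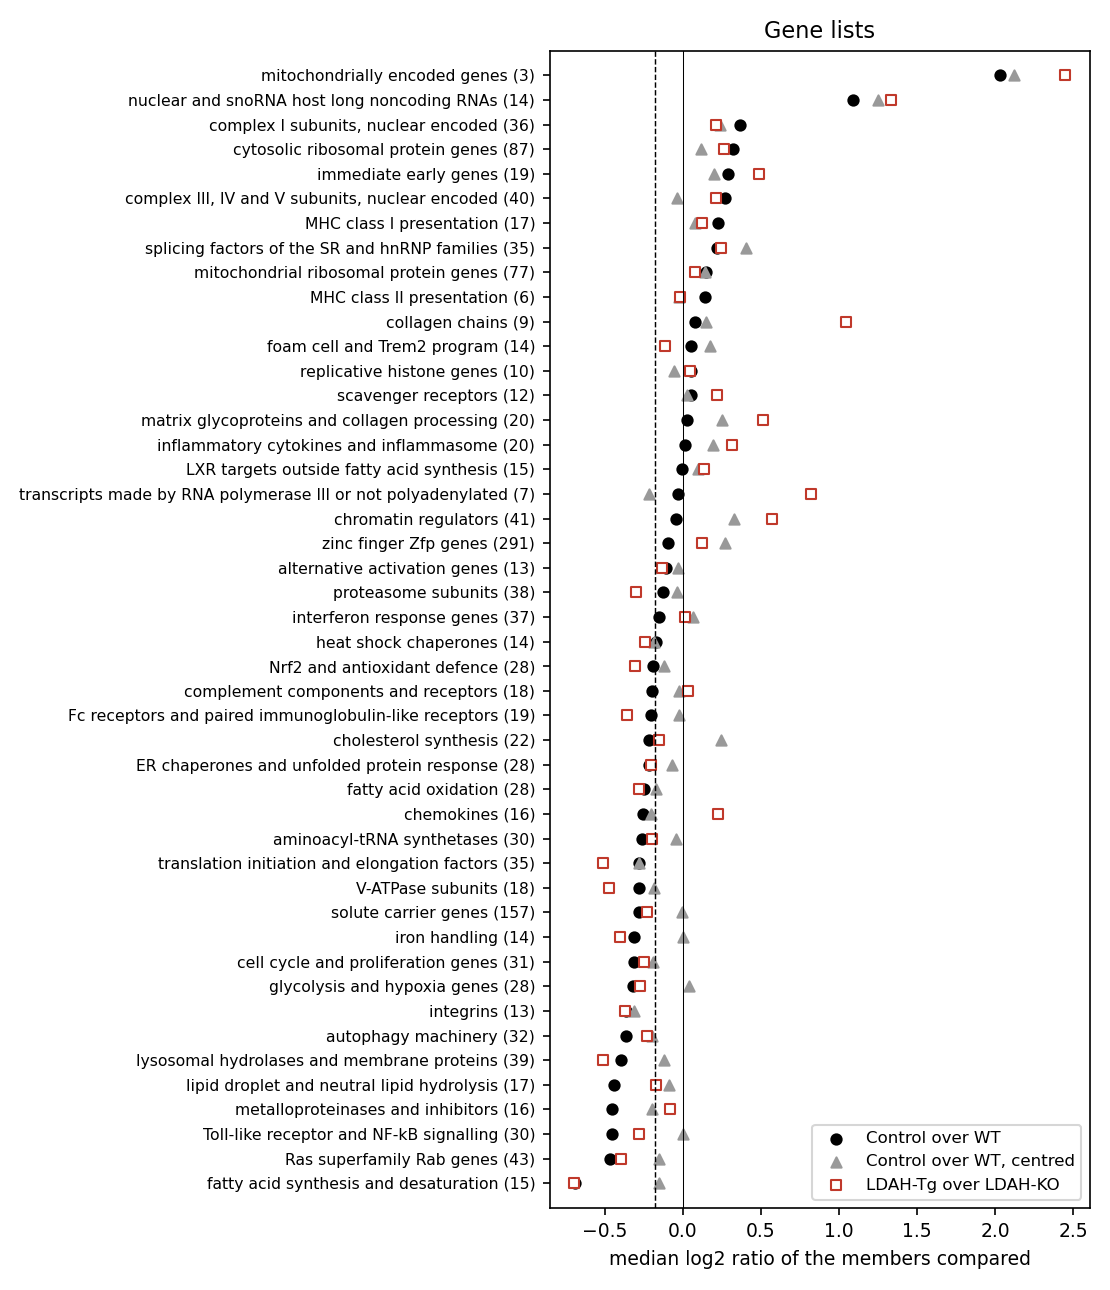
Median log2 ratio (x axis) of each gene list outside the marker and strain lists, with the number of members compared in parentheses, for Control over WT (black), the same after centring within classes of GC and length (gray triangles) and LDAH-Tg over LDAH-KO (red squares). The dashed line is the median of all genes, -0.17; the nuclear noncoding RNAs lie at 1.09 and fatty acid synthesis at -0.69.

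Genes of endosomes, lysosomes and autophagy had medians below that of all genes. Of 43 Rab genes, which direct vesicle traffic, 19 were lower by the factor and 0 higher, 44.2% against 26.5% of all genes, with a median of -0.46 (centred -0.15), and 10 were lower and 0 higher after centring. After *Rab8a* came *Rab22a* (69.6 TPM in WT and 19.1 TPM in Control, -1.84) and *Rab7b* (553 and 194 TPM, -1.51). Of 39 lysosomal genes 12 were lower and 4 higher (median -0.40, centred -0.12), shares of 30.8% and 10.3% that are near those of all genes, and 4 were lower and 3 higher after centring. Examples are *Ctsc* (175 and 80.7 TPM, -1.11) and, on the higher side, *Grn*, of progranulin (957 and 2094 TPM, 1.13), and *Tfeb*, of the regulator of lysosomal genes (48.1 and 104 TPM, 1.11). Of 18 genes of the lysosomal proton pump, 4 were lower and 1 higher by the factor (median -0.28, centred -0.18). The shares were 22.2% lower and 5.56% higher, against 26.5% and 12.1% of all genes. *Atp6v1a* was the furthest (744 and 244 TPM, -1.61). *Tcirg1* (514 and 1126 TPM, 1.13) was the 1 subunit gene higher by the factor. Of 32 autophagy genes 12 were lower and 1 higher (median -0.37, centred -0.20), and 3 and 2 after centring, with *Atg4b* (51.8 and 19.0 TPM, -1.43) and *Becn1* (139 and 66.0 TPM, -1.07) among the lower.

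Stress and metabolic lists had medians from -0.32 to -0.17, with single members far from them. Of 28 genes of ER chaperones and the unfolded protein response 9 were lower and 2 higher (median -0.22, centred -0.07), led by the calnexin gene *Canx* (438 TPM in WT and 123 TPM in Control, -1.83). Of 28 Nrf2 and antioxidant genes 7 were lower and 2 higher (median -0.19, centred -0.12). *Txnrd1*, of thioredoxin reductase, had 379 and 157 TPM (-1.27), and the glutathione transferase gene *Gstm1* 974 and 2050 TPM (1.07). Among iron genes *Tfrc*, of the transferrin receptor, had 291 and 146 TPM (-0.995) beside the far lower *Ncoa4*, and the list median was -0.31 (centred 0.00). In glycolysis and hypoxia the hexokinase gene *Hk2* was higher (23.6 and 76.7 TPM, 1.68), and *Hif1a* (52.5 and 17.4 TPM, -1.56) and *Pdk1* (38.8 and 13.7 TPM, -1.47) were lower, with a list median of -0.32 (centred 0.04). Heat shock chaperones had 5 of 14 lower and 0 higher (median -0.17, centred -0.18), with *Hspd1* at 280 and 108 TPM (-1.37).

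Genes of innate immune signalling leaned lower, and genes of secreted products differed in both directions. Of 30 genes of Toll-like receptor and NF-κB signalling 14 were lower and 1 higher by the factor, with a median of -0.45. After centring the median was 0.00, with 7 lower and 2 higher. The endosomal receptor gene *Tlr8* had 76.4 TPM in WT and 11.6 TPM in Control (-2.67, centred -2.15), *Tlr6* had 35.3 and 13.4 TPM (-1.37), and the adaptor genes *Traf3* and *Ikbkg* had 15.1 and 5.00 TPM and 66.2 and 23.2 TPM. Of 16 chemokine genes 5 were lower and 3 higher (median -0.25, centred -0.21): *Ccl9* had 506 and 159 TPM (-1.67) and *Ccl4* 35.7 and 107 TPM (1.57). Of 20 inflammatory cytokine and inflammasome genes 5 were higher and 3 lower (median 0.01, centred 0.19), with *Mif* (282.5 and 556 TPM, 0.98) against *Il1rn*, of the IL-1 receptor antagonist (338 and 171.5 TPM, -0.98). Of 37 interferon response genes 9 were lower and 4 higher (median -0.15, centred 0.06). *Slfn5* had 103 and 13.3 TPM (-2.91), far from *Rsad2* (17.1 and 7.93 TPM, -1.06), and *Ifitm3* was higher (263 and 482.5 TPM, 0.87).

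Of the lists of antigen presentation, phagocytic receptors and activation, MHC class I had the highest median. Of its 17 genes 7 were higher and 1 lower by the factor (median 0.23, centred 0.08), 41.2% higher against 12.1% of all genes, and 5 and 1 after centring. The class I regulator gene *Nlrc5* had 3.15 TPM in WT and 10.9 TPM in Control (1.65), and the peptide-trimming gene *Erap1* had 57.5 and 21.2 TPM (-1.42). Of 6 class II genes 0 passed the factor in either direction (median 0.14, centred -0.03). Of 13 alternative activation genes 4 were lower and 0 higher (median -0.11, centred -0.03), with *Clec7a*, of the β-glucan receptor dectin-1, at 1804 and 502 TPM (-1.84) and the nuclear receptor gene *Pparg* at 173 and 72.0 TPM (-1.26). Complement genes had 5 of 18 lower and 1 higher (median -0.20, centred -0.02), the last being *Cfp*, of properdin (194 and 390.1 TPM, 1.01). Of 19 Fc and paired receptor genes 4 were lower and 1, *Cd300lf*, was higher (59.7 and 138 TPM, 1.20), with a median of -0.21 (centred -0.02).

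Adhesion and matrix genes completed the comparison. Of 13 integrin genes 6 were lower and 1 higher (median -0.36, centred -0.31), and 2 and 2 after centring, with *Itgb1*, of the common β1 chain, at 474 TPM in WT and 183 TPM in Control (-1.37) and *Itga4* at 16.8 and 7.61 TPM (-1.09). Of 16 metalloproteinases and inhibitors 7 were lower and 3 higher (median -0.45, centred -0.19), and 0 were lower and 3 higher after centring. *Adam9* (55.6 and 26.5 TPM, centred -0.58) and *Adam10* (87.9 and 43.9 TPM, centred -0.31) were lower before centring only, *Adam15* was higher, and *Mmp9* had 2.90 and 6.06 TPM (0.95). Of 20 matrix glycoproteins 4 were higher and 2 lower (median 0.03, centred 0.25), with *Emilin1* at 18.2 and 60.6 TPM (1.71) and *Ecm1* at 58.9 and 160 TPM (1.44). Cell cycle genes had 12 of 31 lower and 1 higher (median -0.31, centred -0.19), and 4 lower and 4 higher after centring. The 1 higher gene was *Mcm3* (18.1 and 42.8 TPM, 1.22), whereas its helicase partner *Mcm5* was lower (6.22 and 2.62 TPM, -1.11). Immediate early genes had 6 of 19 higher and 1 lower (median 0.29, centred 0.20), with *Zfp36* at 33.0 and 67.2 TPM (1.01) and *Myc* at 26.9 and 47.9 TPM (0.82).

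Genes known to carry variants between mouse strains differed in both directions. Of 13 such genes, 5 were compared and 5 were listed at 0 in both groups, and of the 5 compared 2 were higher and 2 lower by the factor (median -0.26, centred 0.04). *Wdfy1* (chromosome 1, 79702262 to 79776143), of an endosomal adaptor of Toll-like receptors, was low in the first line (7.19 TPM in WT, 6.22 TPM in LDAH-KO PM) and higher in the second (35.3 TPM in Control, 30.2 TPM in LDAH-Tg PM). Its log2 ratio was 2.22, and 2.83 after centring, so it stood apart from other genes of low GC content. *Nnt*, the transhydrogenase gene with a known deletion in C57BL/6J, had 23.4 and 19.5 TPM (-0.26), and a value per gene does not show which exons were read. *Alad*, which varies in copy number, had 19.5 and 30.9 TPM (0.65, centred 0.15). *Myo5a*, the site of the DBA/2 coat colour variant dilute, had 500 and 218 TPM (-1.19, centred -0.54), and *Cyfip2* 35.7 and 21.2 TPM (-0.74, centred -0.42). After centring *Wdfy1* was the 1 gene of the 5 that passed the factor.

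Means do not show the sex of single samples, so whether a group mixed males and females was not tested. *Xist*, the RNA of the inactive X chromosome in females, was under 0.01 TPM in both. It lies at a locus assigned to more than 1 gene, so this value is not read as absence. The Y-linked genes *Eif2s3y* (59.1 TPM in WT and 52.9 TPM in Control), *Ddx3y* (34.7 and 21.3 TPM), *Kdm5d* (13.0 and 8.56 TPM) and *Uty* (14.0 and 6.32 TPM) were expressed in both. *Ddx3y* and *Uty* were lower in Control by the factor, with log2 ratios of -0.69 and -1.09, and neither passed it after centring (0.00 and -0.40). *Apoe* was abundant in the group whose label names ApoE, with 8775 TPM, as in WT with 9565 TPM, and again a value per gene does not show which exons were read.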

How the data were processed

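PM of 4 groups were sequenced by the authors as poly(A)-enriched stranded libraries, with 4 samples each. By the submitters' notes, STAR 2.4.2a, Cuffdiff 2.2.1, bcl2fastq 2.17.1.14, DESeq2, HTSeq and Trimmomatic were used on the GRCm38 (mm10) genome. The tool behind the TPM and the annotation release are not given in the sources used here. The deposited values, normalized by the authors to TPM, are 1 mean per group for 48432 genes. Each column sums to 1000000, a total that 1 line without a gene repeats and that was left out. No column held a single sample, so depth and spread are unknown and nothing was tested.

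Genes with a mean of WT and Control of at least 1 TPM and neither at 0 were compared by log2((Control + 0.5)/(WT + 0.5)) and counted by a factor of 1.5. The identifiers of 99.2% of genes are in GENCODE M21 (GRCm38), which gave coordinates, GC content and lengths of the longest coding transcript (99.8% of the genes compared). In lists, a symbol borne by several genes was read from the one of highest mean (116 other entries). Centring subtracted the median ratio of each gene's class, from 10 classes of GC content and 5 of length. The members and all 61 gene lists were chosen with earlier results of these data known. Named were the 20 most abundant protein-coding genes, the 12 highest and lowest ratios at 5 TPM and the 10 at 100 TPM, for each list the members of largest ratio, 4 at most, the 10 most abundant genes at 0 in 1 group, *Ldah*, *Apoe*, *Nnt* and the strain and sex lists, and the 10 genes of 100 TPM nearest to equal means. *Lyz2*, *Csf1r*, *C1qb*, *Snhg6*, *Ly6g*, *Retnlg* and *S100a9* were named outside this rule after their values were seen. So were *Saa3*, *Timd4*, *Prg4* and the foam cell genes listed at 0 in both groups, beside those marked in the text. In simulated data of 11377 genes, 200 changes of 1.5 on the log2 scale were recovered at 100%, which shows only that the steps run. Computations used pandas 2.3.3, numpy 2.4.6, scipy 1.17.1 and matplotlib 3.10.9 in Python 3.11.15.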

Additional observations from a re-analysis of the deposited data

How the results depend on the processing

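The number of genes higher in Control was 2108 after median-ratio scaling and 2078 after quantile normalization, against 1377 as deposited, with 2087 and 2113 lower genes. Of the genes past the factor, 31.3% were higher as deposited and 50.3% and 49.6% after these scalings. A factor of 2 gave 536 higher and 1172 lower genes, and genes alone at their locus 625 and 1448 of 5628, as fewer genes can pass. Centring within classes of GC and length gave 1542 lower genes and 1699 higher. Pseudocounts of 0.1 and 1, no minimum or a minimum of 5 TPM, rescaling over protein-coding genes, protein-coding genes alone and genes with 1 group at 0 kept left both counts within 1.5 times.

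Of 54 list medians, 13 changed sign after centring, 7 after each of the first 2 scalings and 5 with no minimum. At a minimum of 5 TPM 5 of 51 did, and with genes alone at their locus 5 of 50. With genes at 0 kept 1 of 54 did, where the median of mitochondrially encoded genes became -7.27 through entries at 0. After centring *Ddx3y* was at 0.00 and *Hsd17b7* at 0.0191, against -0.69 and -0.66 before. Of 226 named genes past the factor, 174 passed it after centring, 211 after median-ratio scaling and 212 after quantile normalization. No replicate could be left out. No paired analysis was possible because the deposited columns are group means that carry no replicate.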
